A study of Homo sapiens with 6 samples.

Results

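The mitochondrial ribosome is built from proteins encoded in the nucleus and RNAs encoded in the organelle, and it makes only the few membrane subunits of the respiratory chain and ATP synthase that mitochondrial DNA encodes. It descends from a bacterial ribosome, and doxycycline, a tetracycline, is known to inhibit it as well as its bacterial relatives. Its large subunit (MRPL proteins) forms peptide bonds, its small subunit (MRPS proteins) reads the messenger RNA, and a set of factors starts, ends and recycles each round of translation. The genes followed here were all those whose symbol is an MRPL or MRPS number, or one of the initiation, elongation, release and recycling factors TUFM, TSFM, GFM1, GFM2, MTIF2, MTIF3, MTFMT, MTRF1, MTRF1L and MRRF. On the array 79 of 14884 named genes met this rule, through 92 probe sets. They were 48 large subunit genes, 25 small subunit genes and 6 factors, and the elongation factors TUFM, TSFM, GFM1 and GFM2 are not analysed here.

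Expression was measured on 6 Affymetrix arrays of BE(2)-C_tetoff_KDM4C cells, a human neuroblastoma line that carries KDM4C, a histone H3 lysine 9 demethylase, under tet-off control, so that doxycycline keeps the construct silent. One group of 3 was kept in doxycycline for 6 days (construct off) and the other group of 3 was kept without it for 6 days (construct on), both in the same medium with dialyzed serum. Whether the line is 1 clone, and whether the 3 samples of a group were separate cultures, is not given in the sources used here, so p-values measure the spread between these samples. Cells that lack the construct are not among these samples, so the effect of KDM4C and the effect of doxycycline on the mitochondrial ribosome cannot be told apart in any difference below. Differences are log2 values without doxycycline minus with doxycycline, and the level of a probe set is not comparable with that of another. RNA came from whole cultures, so a change in the share of cells and a change in RNA per cell cannot be told apart. Many genes of this family have processed pseudogenes, and how far the probes separate them was not tested.

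The targeted gene followed its label. KDM4C was at 7.71, 7.77 and 7.80 (log2 expression value) with doxycycline and at 8.97, 9.08 and 9.02 without it, a difference of 1.27 (SE 0.07, limma adjusted p = 0.00788). The 6 noradrenergic neuroblastoma markers that were named lay between 8.98 (PHOX2A) and 11.0 (DBH) with doxycycline. Of these 6, 5 had a difference above 0, with a median of 0.14, and TH (0.34) and DBH (0.28), enzymes of catecholamine synthesis, had groups apart at limma adjusted p of 0.19 and 0.244. That median was larger in size than those of the large subunit, the small subunit and the factors, and its part in the differences below was not tested. Of 5 named markers of other cells, SOX10, VWF, PECAM1 and TYROBP lay between 2.98 and 3.96 with doxycycline, near or below the median probe set at 3.94, and EPCAM lay at 4.20.

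None of the 79 genes passed the test over all probe sets. At a limma adjusted p below 0.05, 0 were higher and 0 were lower without doxycycline, where 0.248% and 0.0933% of all probe sets were called in those directions. These shares rest on 183 probe sets, and with any 1 array left out between 0 and 15 were called. The smallest limma adjusted p among the 79 was 0.127 (MRPL50), and at an unadjusted p below 0.05 there was 1 higher gene (MRPL51) and there were 5 lower ones (MRPL50, MRPL45, MRPL44, MRPS35 and MRPS30). That is 1.27% higher and 6.33% lower among the 79. Over all named genes those shares were 7.57% and 6.87%, and over the 9109 named genes brighter than the median probe set, as all 79 were, they were 10.6% and 9.72%. The members' share of higher genes was thus below both backgrounds, and their share of lower genes was close to the first and below the second.

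Most members had a confidence interval within 0.5 log2 units of 0, as did most named genes. These intervals describe the spread between these samples, which may not have been separate cultures. The standard error of a member's difference was between 0.06 and 0.20, with a median of 0.08. For 76 of the 79 genes (96.2%) the 95% confidence interval lay wholly between -0.5 and 0.5, against 84.0% of the brighter named genes. The exceptions were MRPL28, MRPL36 and MRPS7, whose intervals reached -0.52, -0.57 and -0.88. The median size of a difference, without its sign, was 0.06 for the members, 0.09 for all named genes and 0.11 for the brighter ones.

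**Figure D1:**
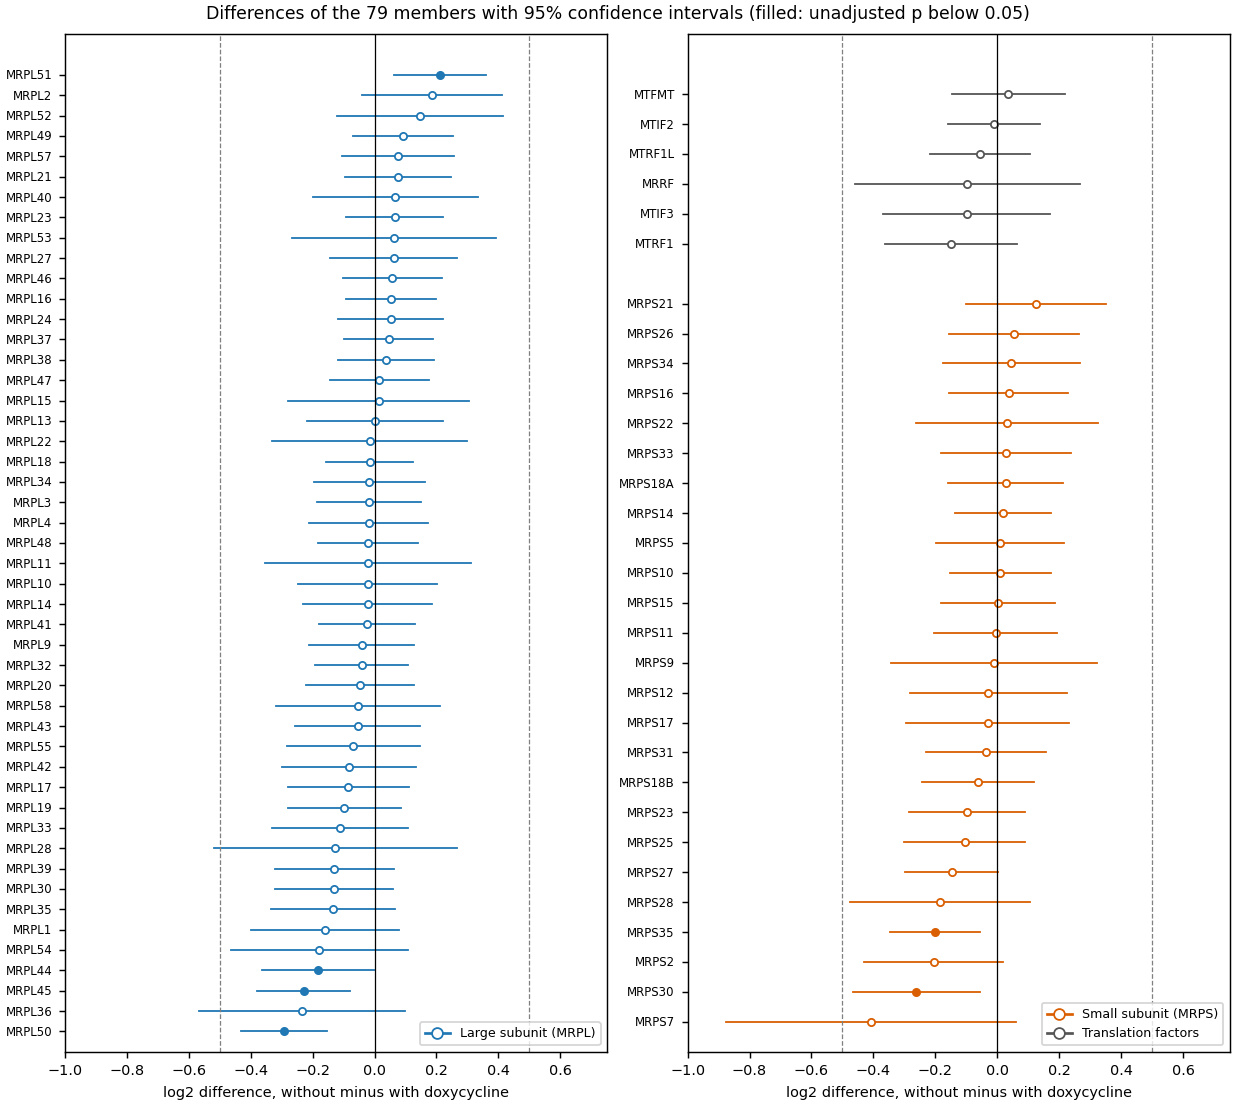
Log2 difference without minus with doxycycline (horizontal axis) of each of the 79 genes, with its 95% confidence interval from limma, large subunit at left and small subunit and factors at right. Filled points have an unadjusted p below 0.05 (MRPL51 above 0, and MRPL50, MRPL45, MRPL44, MRPS30 and MRPS35 below it), dashed lines mark -0.5 and 0.5, and the intervals of MRPL28, MRPL36 and MRPS7 alone cross one of them.

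Among large subunit genes, MRPL50 had the smallest p. It lay at 8.99, 9.02 and 9.02 with doxycycline and at 8.70, 8.74 and 8.71 without it, a difference of -0.29 (SE 0.06), or 1.22-fold lower (unadjusted p = 0.0018, limma adjusted p = 0.127). The groups did not overlap, and the gap between them was larger than the range of either. MRPL45, a protein at the exit of the peptide tunnel that tethers the ribosome to the inner membrane, lay at 11.36, 11.41 and 11.32 with doxycycline and at 11.17, 11.14 and 11.09 without it. Its difference was -0.23 (95% confidence interval -0.38 to -0.08, limma adjusted p = 0.227), and its groups did not overlap either.

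MRPL44, a protein with a double-stranded RNA binding fold, lay at 8.70, 8.84 and 8.81 with doxycycline and at 8.56, 8.55 and 8.70 without it, so the lowest array with doxycycline and the highest without it almost met. Its difference was -0.18, with an interval of -0.36 to -0.0009 (limma adjusted p = 0.401). MRPL51 went the other way, at 8.11, 8.13 and 8.12 with doxycycline and 8.33, 8.28 and 8.39 without it. Its difference was 0.21 (95% confidence interval 0.06 to 0.36), or 1.16-fold (limma adjusted p = 0.256), and every array without doxycycline was above every array with it.

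The remaining large subunit genes singled out by their p were MRPL36 (-0.23), MRPL30 (-0.13), MRPL2 (0.18), MRPL49 (0.09), MRPL52 (0.15) and MRPL21 (0.07), with limma adjusted p of 0.494 to 0.732. In each of these 6 the groups overlapped, and the size of each difference depended on which array was left out. With 1 array fewer the differences ranged from -0.36 to -0.12 for MRPL36, -0.19 to -0.08 for MRPL30 and 0.14 to 0.25 for MRPL2. The ranges were 0.05 to 0.12 for MRPL49, 0.06 to 0.22 for MRPL52 and 0.03 to 0.13 for MRPL21. MRPL36 spread most, at 5.66, 5.61 and 5.87 with doxycycline and 5.24, 5.45 and 5.74 without it. The 3 brightest large subunit probe sets (MRPL45, MRPL11 at -0.02 and MRPL34 at -0.02) and the 3 dimmest (MRPL43 at -0.05, MRPL23 at 0.06 and MRPL54 at -0.18) did not sort by sign or size.

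Among small subunit genes, MRPS35 lay at 9.55, 9.55 and 9.54 with doxycycline and at 9.33, 9.40 and 9.31 without it. The difference was -0.20 (SE 0.06, 1.15-fold lower, limma adjusted p = 0.263), with the 3 arrays in doxycycline nearly equal and all above the others. MRPS30 lay at 9.18, 9.08 and 8.99 with doxycycline and at 8.70, 8.90 and 8.87 without it, a difference of -0.26 (SE 0.09, 1.20-fold lower, limma adjusted p = 0.295). Its groups did not overlap, but the gap between them was narrower than the range of either. Despite its symbol, the MRPS30 protein is placed in the large subunit of solved mitochondrial ribosomes, as is MRPS18A (difference 0.03).

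MRPS7, the counterpart of the bacterial protein that organises the head of the small subunit, had the largest difference of the 79 genes, and it rested on 1 array. It lay at 8.73, 9.54 and 8.94 with doxycycline and at 8.62, 8.68 and 8.68 without it. The difference was -0.41 (SE 0.20, limma adjusted p = 0.467), and without doxycycline-treated replicate 2, the array at 9.54, it was -0.17. MRPS27, a pentatricopeptide repeat protein, lay at 8.44, 8.49 and 8.55 against 8.36, 8.33 and 8.35 without doxycycline, a difference of -0.15 with groups that did not overlap (limma adjusted p = 0.406).

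MRPS2 (-0.21) overlapped between groups. The 5 small subunit genes with the smallest p above 0 were MRPS21 (0.13), MRPS26 (0.05), MRPS34 (0.05), MRPS16 (0.04) and MRPS18A (0.03), with limma adjusted p of 0.651 to 0.924. MRPS15, a bright probe set, was at 0.0025, and the dim MRPS12, the counterpart of a bacterial protein at the decoding centre, and MRPS9 were at -0.03 and -0.01. No small subunit gene was higher without doxycycline with groups apart in the probe set that stood for it. A dimmer probe set of MRPS16, given below, was.

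In all, 8 of the 79 genes (10.1%) had every array without doxycycline below every array with it, and 1 (1.27%) had the reverse, while 70 overlapped. The 8 were MRPL50, MRPL45, MRPL44, MRPS35, MRPS30, MRPS27, MRPS7 and MRPL1 (difference -0.16), the last named after its values were seen. Of all named genes 12.5% were apart downward and 12.1% upward, and of the brighter ones 16.7% and 15.5%. Both shares of the members were thus below the background, the upward one by more.

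**Figure D2:**
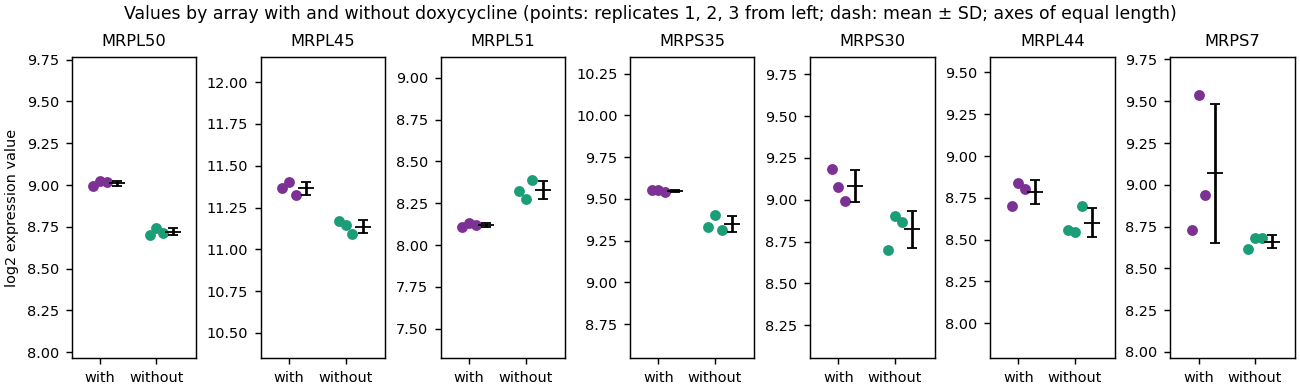
Log2 expression value (vertical axis, each of the same length in log2 units) of each array with and without doxycycline for the 6 genes with an unadjusted p below 0.05 and for MRPS7, with the mean ± SD of 3 arrays. All 7 pairs of groups are apart, MRPL51 upward and the others downward, and the MRPS7 difference follows 1 array at 9.54.

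The 6 factors showed small differences. MTIF2 and MTIF3, which start translation, were at -0.01 and -0.10, and MTFMT, which formylates the initiator methionyl-tRNA, was at 0.04. The release factors MTRF1 and MTRF1L were at -0.15 and -0.06, and MRRF, which recycles the subunits after release, was at -0.10. Their limma adjusted p values ran from 0.556 (MTRF1) to 0.965 (MTIF2), and all 6 confidence intervals lay between -0.5 and 0.5.

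MTRF1 came nearest to a separation, at 7.50, 7.62 and 7.36 with doxycycline and 7.39, 7.39 and 7.25 without it, yet its groups overlapped. MRRF was uneven among the treated arrays, at 8.06, 7.46 and 7.66, and within 7.54 to 7.71 without doxycycline. MTIF3 had a like spread in both groups, from 6.41 to 6.71 with doxycycline and from 6.34 to 6.59 without it. MTIF2 was the steadiest, between 6.36 and 6.45 on all 6 arrays.

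Neither the large nor the small subunit shifted by more than a few hundredths of a log2 unit. Of 48 large subunit genes 18 had a difference above 0 and 30 below it, with a median of -0.021 and a mean of -0.03. Of 25 small subunit genes 11 were above and 14 below, with a median of -0.011 and a mean of -0.06. The 6 factors had 1 above and 5 below, with a median of -0.08. The brighter named genes had 4446 above and 4663 below, with a median of -0.0043.

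The mean log2 value over the 48 large subunit genes was 7.60, 7.65 and 7.60 with doxycycline and 7.58, 7.62 and 7.57 without it. Over the 25 small subunit genes it was 8.02, 8.11 and 8.05 with doxycycline and 7.99, 8.03 and 7.99 without it. In both subunits doxycycline-treated replicate 2 was the highest of the 6 arrays and the groups overlapped. That array also held the highest value of 27 of the 79 genes, more than any other array. Without it the large subunit median turned to 0.0061, and the small subunit median was -0.017.

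Over the 6 factors the mean was 7.77, 7.71 and 7.71 with doxycycline and 7.71, 7.64 and 7.66 without it, where the highest untreated array lay just below the lowest treated one. The large subunit mean minus the small subunit mean was -0.42, -0.46 and -0.45 with doxycycline and -0.41, -0.42 and -0.42 without it. This made -0.44 ± 0.02 against -0.42 ± 0.01 (SD, n = 3 each), a shift of 0.03 between groups that overlapped. No test was made of it, since the genes were proposed with results of these data known. With MRPS30 and MRPS18A counted in the large subunit, where their proteins sit, the shift was 0.02. Small subunit proteins under other symbols, such as PTCD3 and DAP3, were not added in this count.

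**Figure D3:**
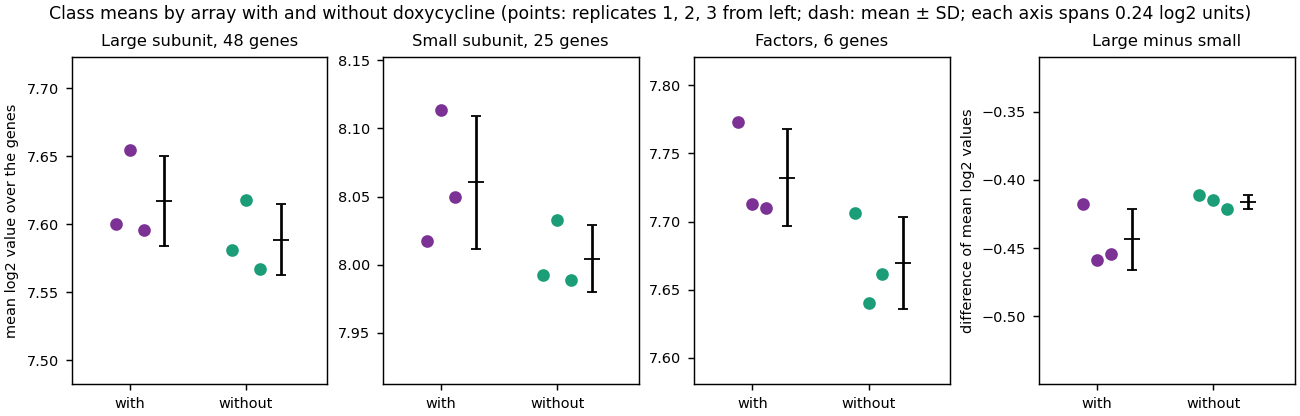
Mean log2 value over the genes of each class, and the large minus the small subunit mean, on each array with and without doxycycline (vertical axes of equal length), with the mean ± SD of 3 arrays. Doxycycline-treated replicate 2 is the highest in both subunits, the groups overlap in the large subunit, the small subunit and their difference, and the 3 untreated factor means lie below the 3 treated ones.

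Proteins of the mitochondrial ribosome divide into those with a bacterial counterpart (here MRPL and MRPS genes numbered up to MRPL36 and MRPS21) and those found only in mitochondria. This division was made after the values were seen and is a description. Of 41 genes with a bacterial counterpart, 0 had an unadjusted p below 0.05 and their median difference was -0.017. Of 32 mitochondria-specific genes, 1 was higher and 5 were lower at that p, and their median difference was -0.03. That is 3.12% higher and 15.6% lower, beside 10.6% and 9.72% of the brighter named genes. By sign the 2 kinds differed less, with 26 of the 41 and 18 of the 32 below 0. Groups were apart downward in 2 of the 41 (4.88%, MRPS7 and MRPL1) and in 6 of the 32 (18.8%), beside 16.7% of the brighter named genes. The 6 genes with an unadjusted p below 0.05 (MRPL50, MRPL45, MRPL44, MRPL51, MRPS35 and MRPS30) did not pass after adjustment. The difference between the 2 kinds was not tested.

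Of the 79 genes, 5 were represented by several probe sets, which gave a check of single values. The 7 rows of MRPS18B held identical values on every array and are 1 measurement, with a difference of -0.06. The 5 rows of MTRF1L ran from -0.06 to 0.05. MRPS2 disagreed in sign, at -0.21 in its brighter and 0.06 in its dimmer row. MRPL44 was at -0.18 in its brighter row and at 0.06 in a row near 3.3, below the median probe set. The dimmer row of MRPS16 lay at 6.22, 6.13 and 6.10 with doxycycline and 6.29, 6.42 and 6.49 without it, a difference of 0.25 with groups apart (limma adjusted p = 0.274), where the brighter row was at 0.04.

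The promoters of these genes share sequence motifs that the choice of genes did not use. RefSeq promoter sequences (GRCh38.p14, from 250 bases before to 50 bases after each gene's start) were found for 70 of the 79 genes. They were searched on both strands for fixed words, and a match is a description of the letters and not of a bound factor. CCGGAAG, the core of the ETS-type site known for the mitochondrial gene regulator GABP (NRF-2), stood in 30 of 70 promoters (42.9%), against 10.7% of 27305 promoters in the table, 14.2% of 15843 protein-coding ones and 29.8% of 47 promoters of cytosolic ribosomal protein genes. AAGATGG, a word of the YY1 site, stood in 22 of 70 (31.4%), against 6.06%, 6.40% and 12.8% in those sets. This word holds the letters ATG, and the search ran to 50 bases after the start. Whether matches there are the start codons of the genes was not tested. GCATGCG, a word of the NRF1 site, stood in 6 of 70 (8.57%), against 4.13% of all promoters and 5.14% of protein-coding ones. The remaining words were not more frequent than among all promoters. The CCAAT box stood in 28.6% against 35.7%, and TGATGNAA, a word of CHOP and ATF4 sites, in 1.43% against 3.67%. CACGTG, the E-box, stood in 7.14%, close to the 7.43% of all promoters. Its matches were all in large subunit promoters, 5 of 41 (12.2%).

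The YY1-type word is shown for 8 genes because 4 of the 6 genes with an unadjusted p below 0.05 hold it, MRPL50, MRPL45 and MRPS30 (lower) and MRPL51 (higher). MRPS27 and MRPS7, whose groups were apart, follow, and then MRPS10 and MRPS18A, whose differences were 0.01 and 0.03. Each line gives 30 bases around the match, read on the strand that spells the word, with the word in capitals. The word began after the start site in 15 of its 23 matches among the members, and within 30 bases of it in 14, as it did in the 8 genes shown.
MRPL50, chr9:101398576-101398605, minus strand: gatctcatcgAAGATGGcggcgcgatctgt
MRPL45, chr17:38297171-38297200, plus strand: ttgcgggaacAAGATGGcagcccccatacc
MRPL51, chr12:6493222-6493251, minus strand: ggtaaggcccAAGATGGctgtcttcgcctt
MRPS30, chr5:44808950-44808979, plus strand: atcgcgggcaAAGATGGcggcggccaggtg
MRPS27, chr5:72320205-72320234, minus strand: ggtacgctccAAGATGGctgcctccatagt
MRPS7, chr17:75261888-75261917, plus strand: gtggccagccAAGATGGctgcccccgcagt
MRPS10, chr6:42217833-42217862, minus strand: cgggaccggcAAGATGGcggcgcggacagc
MRPS18A, chr6:43687763-43687792, minus strand: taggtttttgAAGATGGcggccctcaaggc

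The 22 genes with the YY1-type word had differences between -0.41 (MRPS7) and 0.21 (MRPL51), with a median of -0.025, against -0.023 for the 48 without it. The word was thus found beside differences of either sign and beside differences near 0. The ETS-type word split the genes more: of 30 with it, 14 had a difference below 0 (median 0.013), and of 40 without it, 32 did (median -0.052). All 5 genes that were lower at an unadjusted p below 0.05 lacked the ETS-type word, and MRPL51, the 1 higher gene, held it. This was seen after the differences were known and was not tested. In 9 genes both words occurred, and in 0 did they overlap.

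The 250 bases before the start of MRPL50 and MRPS30 (both lower) and of MRPL51 (higher) are shown, with the ETS-type word in capitals on either strand. MRPL51 holds 1 on each strand, beginning at -119 and -104 from its start, and the other 2 stretches hold none. These genes were picked from those that made the contrast, so their sequences add no support to it. Other genes went against it: MRPL54 (-0.18) and MRPL30 (-0.13) hold the word, and MRPL49 (0.09) lacks it.
MRPL50, chr9:101398619-101398868, minus strand: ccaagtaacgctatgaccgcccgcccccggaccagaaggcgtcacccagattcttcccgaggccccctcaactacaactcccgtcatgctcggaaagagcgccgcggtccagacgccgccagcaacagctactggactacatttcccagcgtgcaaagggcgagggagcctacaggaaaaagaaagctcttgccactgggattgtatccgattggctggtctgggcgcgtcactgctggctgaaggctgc
MRPL51, chr12:6493263-6493512, minus strand: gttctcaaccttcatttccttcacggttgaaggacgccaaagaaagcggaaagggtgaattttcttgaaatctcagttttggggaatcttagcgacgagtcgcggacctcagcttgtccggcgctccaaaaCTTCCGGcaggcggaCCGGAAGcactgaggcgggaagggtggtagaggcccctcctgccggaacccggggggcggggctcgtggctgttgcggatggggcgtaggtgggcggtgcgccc
MRPS30, chr5:44808697-44808946, plus strand: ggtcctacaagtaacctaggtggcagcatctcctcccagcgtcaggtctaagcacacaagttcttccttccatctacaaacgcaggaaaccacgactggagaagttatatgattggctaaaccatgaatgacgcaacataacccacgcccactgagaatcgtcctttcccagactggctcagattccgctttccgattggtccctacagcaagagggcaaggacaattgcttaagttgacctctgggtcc

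Other genes of the pathway, from lists set beside the members, were compared in the same fit, and 0 genes of any of them passed over all probe sets. Of the proteins of the mitochondrial ribosome that carry other symbols, PTCD3 was at -0.22 (limma adjusted p = 0.214) and DAP3 at -0.15 (0.467). Both are small subunit proteins with groups apart, and CHCHD1 was at 0.03. With KGD4, the list had 4 named genes, so 50% were apart downward, a share that rests on 2 genes. Of all named genes 12.5% were apart downward, and of the brighter ones 16.7%. KGD4, once counted as a ribosomal protein under the symbol MRPS36 and now known as a part of the 2-oxoglutarate dehydrogenase complex, was at -0.07. Of 5 further translation genes, RMND1 was at -0.26 (unadjusted p = 0.0479) and OXA1L, the insertase that receives new chains, at -0.08, while GUF1 and MTRFR were at 0.14 and 0.05. Only 2 genes of the list for charging mitochondrial tRNAs were named, GATB at -0.09 and QRSL1 at -0.045.

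Among 23 assembly and ribosomal RNA modification factors, the median was 0.0063, with 1 gene higher (4.35%) and 2 genes lower (8.7%) by unadjusted p. Over all named genes those shares were 7.57% and 6.87%. Over the brighter named genes, as all 23 were, they were 10.6% and 9.72%. NOA1, a GTPase of small subunit assembly, was at -0.34 (95% confidence interval -0.48 to -0.19, limma adjusted p = 0.0975), and FASTKD2, which binds the large ribosomal RNA, at -0.29 (limma adjusted p = 0.152). ERAL1, a chaperone of the small ribosomal RNA, was at 0.21 and RPUSD3, a pseudouridine synthase, at 0.11. The differences of the list ran in both directions, 12 above 0 and 11 below, where the 79 genes had 30 above and 49 below.

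Mitochondrial transcription and RNA processing genes had the lowest median of the lists with more than 5 named genes. Of 14 measured, 11 were below 0 and the median was -0.12, with 3 lower at an unadjusted p below 0.05 and 5 (35.7%) with every array without doxycycline below every array with it. The shares of all named genes were 6.87% lower by that p and 12.5% apart downward, and of the brighter ones 9.72% and 16.7%. FASTKD1, an RNA-binding protein of the FASTK family, was at -0.37 (limma adjusted p = 0.127), and PNPT1, the organelle's polynucleotide phosphorylase, at -0.28 (0.326). HSD17B10, a subunit of mitochondrial RNase P, and MTERF1 were above 0, at 0.16 and 0.03. TRMT10C, another subunit of that enzyme, was at -0.23 and LRPPRC, which stabilises mitochondrial messenger RNAs, at -0.27. None of the 14 passed after adjustment, and the list's difference from the ribosomal proteins was not tested.

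Of 9 mitochondrial chaperones and proteases, SPG7, a subunit of the inner membrane protease that matures MRPL32, was at -0.35 (limma adjusted p = 0.19) and HSPD1, the chaperonin HSP60, at -0.16 (0.385). HSPA9 and CLPX were at 0.07 and 0.04, and the median of the list was 0.0044. MRPL32 itself was at -0.04.

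Cytosolic ribosomal protein genes, the nearest relatives by function, also had small differences. Their 52 genes had a median of -0.0098, with 25 above and 27 below 0, 1 gene higher and 1 gene lower by unadjusted p, and 1 upward and 4 downward with groups apart. Those shares were 1.92% each way by p and 1.92% and 7.69% apart, all below the 7.57%, 6.87%, 12.1% and 12.5% of all named genes. RPS15 and RPS9 were at 0.24 and 0.20, and RPS23 and RPL39 at -0.19 and -0.22. Nuclear oxidative phosphorylation genes (22 named, 18 of them brighter than the median probe set) had a median of -0.04. They held no gene of respiratory complex I or II (NDUF or SDH symbols). COX8A and ATP5IF1 were at 0.27 and 0.17, and COX7B and COX7A2 at -0.23 and -0.16. The median sizes of a difference without its sign were 0.08 and 0.12 in these lists, beside 0.06 among the 79 genes.

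**Figure D4:**
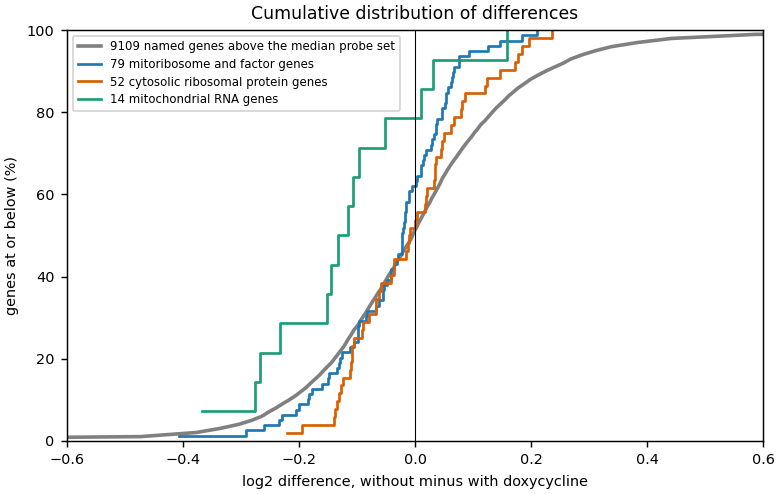
Share of genes (vertical axis, percent) at or below a given log2 difference without minus with doxycycline (horizontal axis) for the 79 genes, 52 cytosolic ribosomal protein genes, 14 mitochondrial transcription and RNA processing genes and the 9109 named genes brighter than the median probe set. The curve of the 79 genes is steeper than that of the 9109, and that of the 14 lies to its left, with a median of -0.12.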

How the data were processed

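Total RNA of 6 samples, 3 per group, was hybridised to Affymetrix whole-transcript arrays. The deposited table holds 1 log2 value per probe set and array as made by the authors. Partek was used, per the submitters' processing notes, while the sources used here do not state background correction, normalization, summarization or genome build. The number of arrays, not depth, limits precision, and summarized values can understate fold changes.

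Names came from GEO's annotation of the platform (16098 of 53617 with 1 symbol, 37519 with none). The fit used limma 3.58.1 under R 4.3.3 (lmFit, eBayes; no covariate, no filter) on all 53617, adjusted by Benjamini-Hochberg with 0.05 as threshold, and tested on simulated data. The probe set with the highest mean stood for a gene. Named genes were all factors, in each subunit the 5 of smallest p on either side of 0 and the 3 brightest and dimmest, those with several probe sets, and in other lists the 2 of smallest p on either side. Genes outside this rule are named where a small count is spelled out. The members and lists were chosen with earlier results of these data known. Alternatives were quantile normalization, trend and robust moderation, no dim probe sets, a replicate block, 1 array fewer, averaged probe sets and subunits by place.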

Additional observations from a re-analysis of the deposited data

How the results depend on the processing

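No member passed the threshold in limma under any of the alternatives run (quantile normalization, trend and robust moderation, no dim probe sets, the replicate block, averaged probe sets, or any 1 of the 6 arrays left out). The nearest was MRPL50, at an adjusted p of 0.0515 under trend and robust moderation, and its adjusted p in the others lay between 0.0815 and 0.308. With 1 array fewer, between 1 and 2 members were higher and between 3 and 7 lower at an unadjusted p below 0.05.

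The replicate block, which pairs arrays by the number in their titles, left the KDM4C difference at 1.27 but raised its adjusted p to 0.118, and called 0 of all probe sets where the fit without it called 183. Over all probe sets, leaving out treated array 1, 2 or 3 left 1, 2 and 15 calls, and leaving out untreated array 1, 2 or 3 left 13, 0 and 0. Trend and robust moderation called 385 and dropping dim probe sets 311. Over all probe sets, same-numbered arrays did not deviate together (correlations -0.012, -0.014 and 0.041), and 1 number (3) correlated best with its own. Among the members, replicate 2 had the highest large subunit mean in its group (7.65 treated, 7.62 untreated). The same held for the small subunit mean (8.11 and 8.03). Whether arrays of 1 number share a batch was not tested. With 1 array left out, KDM4C ranged from 1.24 to 1.29, with an adjusted p of 0.0597 to 0.0696 when treated array 1 or 2, or array 2 or 3 of the untreated cells, was left out.

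With 1 array left out, the large subunit median ranged from -0.046 to 0.0061, the small subunit median from -0.056 to -0.0003 and the factor median from -0.098 to -0.0073, while the large minus small subunit shift stayed between 0.020 and 0.041. Differences near 0 changed sign in this way, and the cause was not tested. The ranges were -0.016 to 0.13 for MRPS26, -0.0043 to 0.13 for MRPS34, -0.024 to 0.092 for MRPS18A, -0.056 to 0.042 for MRPS15, -0.13 to 0.086 for MRPS9, -0.13 to 0.032 for MRPS12 and -0.0003 to 0.10 for MRPS16. They were -0.12 to 0.089 for MRPL11, -0.069 to 0.011 for MRPL34, -0.23 to 0.068 for MRRF, -0.034 to 0.0092 for MTIF2 and -0.013 to 0.083 for MTFMT. MRPS9 also turned to 0.0046 with quantile normalization. No background level can be set from the deposited values, so changes in dim probe sets such as MRPL54 and MRPL23 may be understated.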
